A study of Mus musculus with 4 samples.

Results

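Cxcr6 encodes a chemokine receptor, and its transcript was followed here through 4 single-cell RNA libraries of mouse embryos. The gene was found by its symbol in the feature lists, where it is 1 gene of 31914 in the joined lists. The cells were live CD45+ F4/80- IL7Ra+ cells, sorted by flow cytometry after magnetic CD45 enrichment from C57BL/6J embryos, with no allele or treatment given in the labels. The groups were embryonic periphery at E14.5, embryonic periphery at E13.5, fetal liver at E14.5 and fetal liver at E13.5, with 1 library each. After filtering, 3161 of 4354 cells of E14.5 periphery and 1555 of 4165 cells of E13.5 periphery held at least 1 Cxcr6 molecule (UMI, a unique molecular identifier counted once per captured RNA). In fetal liver the numbers were 329 of 10833 cells at E14.5 and 94 of 10223 cells at E13.5.

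CXCR6 is a G protein-coupled receptor whose ligand, CXCL16, is made as a membrane-anchored chemokine and can be shed by metalloproteases. In mice, CXCR6 is known from innate lymphoid cells, NK cells and T cells that settle in tissues, and liver sinusoids are a well-studied site of CXCL16 display. LTi (lymphoid tissue inducer) cells are innate lymphocytes of the fetus that start lymph nodes. They arise from IL7Ra+ liver progenitors, and CXCR6 is known in mouse fetal liver from innate lymphoid precursors beyond the common lymphoid stage. Cxcr6 was chosen by its measured levels over these 4 libraries and by what its positive cells co-express, so both are given as a description without a test.

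Cxcr6 (ENSMUSG00000048521) lies on the plus strand of chr9:123806475-123811760 in GRCm38. Its main annotated transcript has 2 exons. The coding sequence, from 123809936 to 123810988, lies wholly in exon 2, which also holds the 3′ UTR read by a 3′ assay. The gene sits inside the span of Fyco1, on the opposite strand at 123789500 to 123851899. Ccr9 ends upstream at 123784330, and Xcr1 begins downstream at 123852315. The labels do not say whether counting used strand, so the reads of Cxcr6 and of the Fyco1 introns around it could only be told apart by level. The 250 bases that end at the RefSeq start of Cxcr6 are printed because the level of the gene differs so widely between the cell classes described next. The sequence is the RefSeq promoter of the GRCm38.p6 table at chr9:123806227-123806476, plus strand, and the capitals mark the motifs that were found.
Cxcr6 promoter: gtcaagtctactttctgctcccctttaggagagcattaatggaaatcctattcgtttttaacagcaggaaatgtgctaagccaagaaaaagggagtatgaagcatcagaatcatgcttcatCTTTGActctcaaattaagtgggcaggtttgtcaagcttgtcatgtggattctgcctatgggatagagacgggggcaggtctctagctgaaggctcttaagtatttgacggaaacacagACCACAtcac
Both strands were searched for 5 motifs. The TCF and LEF letters CTTTGA matched once, 129 bases before the start, and 13.8% of 32851 promoters of the same length hold them. The RUNX letters TGTGGT matched once on the minus strand, read as ACCACA on the plus strand 10 bases before the start, and 14% of promoters hold them. There was no match to the T-box letters GGTGTG, held by 16.3% of promoters. The GATA letters AGATAA, held by 9.99%, and the ETS letters CNGGAAG, held by 26.6%, had no match either.

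The libraries held 44599592 and 53229734 UMIs for E14.5 and E13.5 periphery, and 208229937 and 212034840 UMIs for E14.5 and E13.5 fetal liver. Different Chromium 3′ kits were used for the periphery (v2) and for fetal liver (v3), so kit and tissue cannot be told apart. With 1 library per group, stage and library cannot be told apart either, no p-value is given, and every interval is a 95% interval for counting error only. The labels do not name the embryonic sites pooled as periphery or the number of embryos. At most 26 cell barcodes were shared by any pair of libraries. Classes of cells were rebuilt by clustering without Cxcr6 and named X-like from marker genes. Defining LTi genes were present in the LTi-like cells, but the group 1-like cells, innate lymphoid cells with Ccl5, Klrd1 and Ifng, had low Tbx21 and Ncr1 and little Eomes or Gzmb, as given with their results.

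Cxcr6 was abundant in the periphery and rare in fetal liver. Its summed level was 259 (254 to 264) CPM (UMIs of the gene per 1000000 UMIs) in E14.5 periphery and 73.5 (71.1 to 75.9) CPM in E13.5 periphery. It was 7.62 (7.23 to 8.04) CPM in E14.5 fetal liver and 1.16 (1.02 to 1.32) CPM in E13.5 fetal liver. The 4 levels did not overlap within counting error, and in both tissues the E14.5 library was the higher one.

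Shares of cells moved the same way once depth was made equal. Every cell was thinned at random to 5000 UMIs, which left out 460, 331, 736 and 381 shallower cells of E14.5 periphery, E13.5 periphery, E14.5 fetal liver and E13.5 fetal liver. At that depth 64.1% (62.6 to 65.6) of E14.5 and 25.7% (24.4 to 27.2) of E13.5 periphery cells held Cxcr6. In fetal liver the shares were 2.32% (2.03 to 2.63) at E14.5 and 0.559% (0.421 to 0.727) at E13.5. Without thinning they were 72.6%, 37.3%, 3.04% and 0.919% in the same order. B lineage-like cells, a class in which the receptor is not known as a marker, gave a floor for free RNA. Of these, 2% held Cxcr6 at the thinned depth in E14.5 periphery and 0 of 308 cells in E13.5 periphery. A count of 0 is read as up to 3 cells here and further on, and so allows up to 0.974% of those cells to hold a UMI. In E14.5 and E13.5 fetal liver the shares were 0.0972% and 0.231%. The B lineage-like cells had median depths of 18502, 13862.5, 15278.5 and 12136 UMIs before thinning, against 8503, 11081, 15611 and 18430 UMIs for all cells of the same 4 libraries. The shares belong to cells inside the IL7Ra+ gate and not to the tissues at large.

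**Figure D1:**
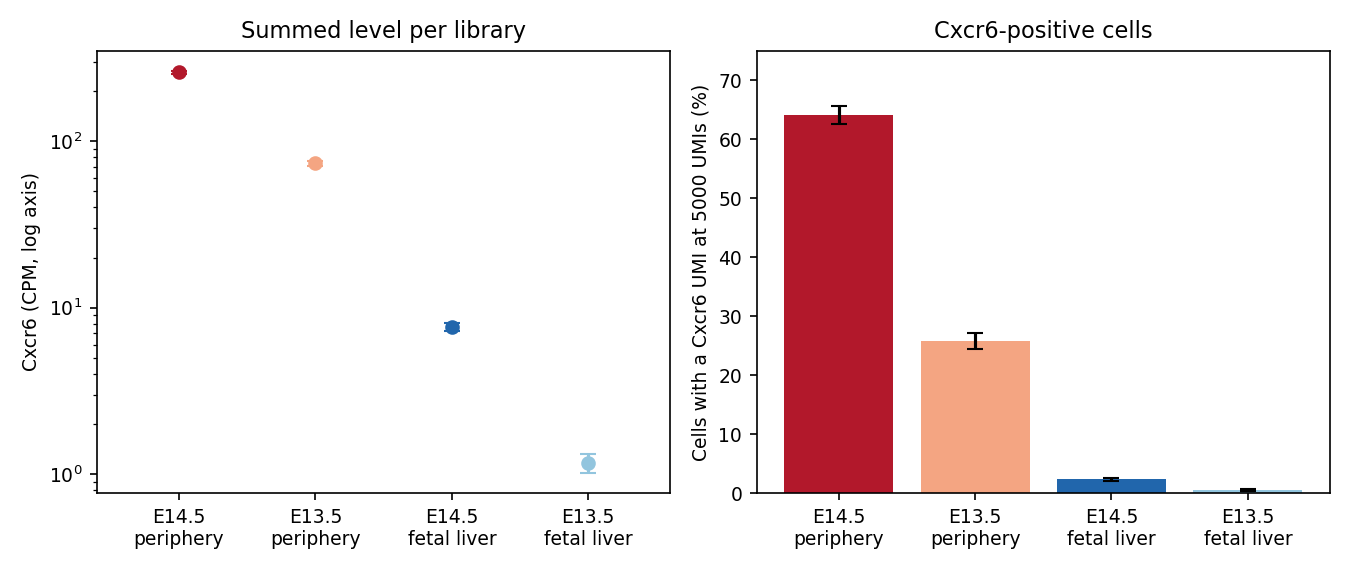
Cxcr6 in the 4 libraries. The left panel gives the summed level in CPM on a log axis with 95% Poisson intervals, and the right panel the percent of cells with a Cxcr6 UMI at 5000 UMIs per cell with 95% binomial intervals. The level runs from 259 in E14.5 periphery to 1.16 in E13.5 fetal liver, and the share from 64.1% to 0.559%.

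Among positive cells the amount per cell was higher at E14.5 in both tissues. The median positive cell held 3 Cxcr6 UMIs at E14.5 and 2 at E13.5 in the periphery, and likewise 3 and 2 in fetal liver, with no thinning. The highest cell held 29 and 15 UMIs in E14.5 and E13.5 periphery, and 27 and 15 in E14.5 and E13.5 fetal liver. Cells with a single UMI made up 23.7% and 43.3% of the positive cells of E14.5 and E13.5 periphery, and 26.1% and 42.6% of those of fetal liver. Cells with 5 or more UMIs made up 25.2% and 11.3% in the periphery and 34.3% and 8.51% in fetal liver at E14.5 and E13.5. The libraries of the 2 kits differ in depth, so these amounts are given side by side for each tissue. In fetal liver the positive cells were shallower than the negative ones, with medians of 10400 against 15790 UMIs at E14.5 and 11894 against 18478 UMIs at E13.5. In the periphery the depths were close, at 8448 against 8749 UMIs and 10604 against 11389 UMIs.

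Nearly all Cxcr6 molecules came from innate lymphoid clusters. These clusters held 95.7% and 95.8% of the Cxcr6 UMIs of E14.5 and E13.5 periphery, and 98.5% and 97.4% of those of E14.5 and E13.5 fetal liver. In the periphery LTi-like cells were the main source, with 86.9% of UMIs at E14.5 and 80.2% at E13.5. In fetal liver the group 1-like cells were the larger source, with 81.1% at E14.5 and 56.3% at E13.5, and LTi-like cells held 17.2% and 41.0%. With other clusterings the share of innate lymphoid clusters came to 87.5 to 94.3% in E14.5 periphery and 75.8 to 89.6% in E13.5 periphery, while in fetal liver it stayed between 97.4 and 98.8%.

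LTi-like cells had 316 (309.7 to 322) CPM of Cxcr6 in E14.5 periphery and 123 (119 to 128) CPM in E13.5 periphery. In fetal liver they had 106 (92.5 to 119.9) CPM at E14.5 and 15.9 (12.8 to 19.4) CPM at E13.5. At equal depth 72.3% and 39.5% of LTi-like cells were positive in E14.5 and E13.5 periphery, and 31.8% and 6.60% in E14.5 and E13.5 fetal liver. The LTi-like level at E13.5 in fetal liver was thus the lowest of the 4, and the E14.5 fetal liver level lay below that of E13.5 periphery with intervals that touch. The LTi-like cells of fetal liver form a single cluster that also detects all 9 of the innate lymphoid progenitor markers, and LTi-like cells numbered 3401 and 2289 in E14.5 and E13.5 periphery and 211 and 421 in E14.5 and E13.5 fetal liver.

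Group 1-like cells had a higher Cxcr6 level than LTi-like cells in both fetal liver libraries, while in the periphery the order depended on how the class was drawn. They had 351 (329 to 374) CPM in E14.5 periphery and 103 (94.6 to 112) CPM in E13.5 periphery, against 321 (303 to 341) CPM in E14.5 and 76.3 (63.7 to 90.7) CPM in E13.5 fetal liver. At equal depth 69.1% (62.9 to 74.8) and 27.7% (23.6 to 32.1) of group 1-like cells held Cxcr6 in E14.5 and E13.5 periphery, neither above the LTi-like share, and 61.9% and 22.9% in E14.5 and E13.5 fetal liver, both above it. Over other clusterings the periphery level spread from 163 to 506 CPM at E14.5 and from 58.1 to 218 CPM at E13.5. At resolution 2 the E14.5 level of 163 CPM lay below the 321 CPM of LTi-like cells, and with seed 2 the E13.5 level of 218 CPM lay above the 139 CPM of LTi-like cells. The fetal liver values spread from 311 to 337 CPM at E14.5 and from 72.1 to 110.3 CPM at E13.5. The periphery class joined a cluster led by interferon-inducible genes (AW112010, Gbp2, Igtp) together with Ifng, at 470.3 CPM and 215 CPM at E14.5 and E13.5, and a cluster led by Ccl5, Cck and Cd3g, at 193 and 58.8 CPM, below the LTi-like level at both stages.

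The clusters named progenitor-like had little or none of the transcript. The cluster of fetal liver named innate lymphoid progenitor-like, led by Tcf7, Gata3, Tox, Zbtb16 and Nfil3, held 3 Cxcr6 UMIs in 458 cells at E14.5, which is 0.323 (0.0667 to 0.945) CPM, and 0 UMIs in 954 cells at E13.5. That 0 allows up to 0.314% of those E13.5 cells to hold a UMI. The E14.5 value overlaps the 0.0842 (0.0309 to 0.183) CPM of B lineage-like cells in the same library. Stem-like progenitors held no Cxcr6 UMI in 399 E14.5 and 1759 E13.5 cells, which allows up to 0.752% and 0.171% of them to hold a UMI. Lymphoid progenitor-like cells held 0.141 and 0.0387 CPM at E14.5 and E13.5. The cluster named for the innate lymphoid progenitor markers did not have the highest level of them. Their mean level, in log2 units above the mean of all fetal liver clusters, was 2.05 in that cluster, with 8 of 9 detected, against 3.29 in the LTi-like cluster, with 9 of 9, and 2.82 in the group 1-like cluster, with 8 of 9. The LTi-like cluster scored 2.85 on the LTi markers and the group 1-like cluster 2.98 on the group 1 markers. The LTi-like cluster took its name from the 5 LTi markers among its 10 leading genes. The low level therefore belongs to the clusters so named and not to every cell with progenitor markers.

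Other classes of the periphery were low, with exceptions of small size. B lineage-like cells had 4.85 (3.25 to 6.97) CPM at E14.5 and 0.427 (0.0518 to 1.54) CPM at E13.5, and monocyte-like cells, which were shallow at a median of 1120 and 5924 UMIs, had 50.1 and 20.8 CPM. An unnamed cluster led by Cma1, Tcrg-C4 and Bcl11b, genes of mast cells and of T lineage cells, had 338 and 101 CPM at E14.5 and E13.5. It detected 5 of 9 mast cell or basophil markers, with a score of 2.55, and 5 of 8 group 2 innate lymphoid markers, with 2.10. These scores were too close for a name, and the cluster is not counted among the innate lymphoid clusters. A T cell-like cluster of 20 shallow cells at E14.5, led by Trac, Cd3d and Trdc, had 1592 (1298 to 1933) CPM, the highest of any cluster. Its median was 2896 UMIs, 18 of its cells fell below the thinned depth, and no share is given.

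**Figure D2:**
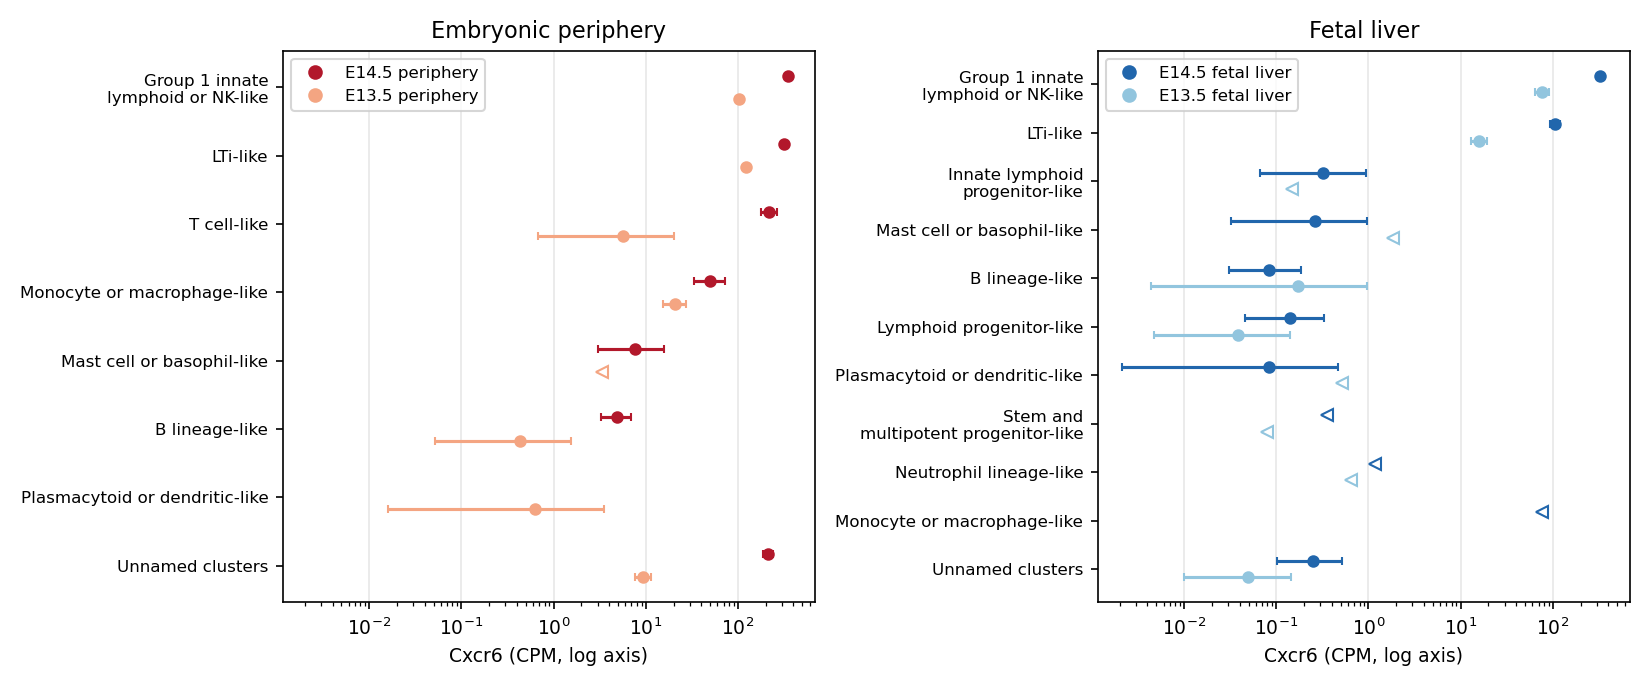
Cxcr6 level by class of cells. Points give CPM on a log axis with 95% Poisson intervals for E14.5 (dark) and E13.5 (pale) cells of the periphery (left) and fetal liver (right), and open triangles mark the level that 3 counts would give in a class with none. LTi-like and group 1-like cells of fetal liver lie far right of the classes named progenitor-like.

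Within the LTi-like cells of the periphery, Cxcr6 differed between clusters. At E14.5 it was 366 and 355 CPM in the 2 largest clusters without mitotic genes, 273 CPM in a cluster led by mitotic genes, 265 CPM in one led by MHC class II genes and 117 CPM in a small one led by Cfp and Il1r2. At E13.5 it was 181 CPM in a cluster led by Crem, Areg and Il22, 125 CPM in a mitotic cluster and 55.7 CPM in the cluster led by Cfp and Il1r2. The cluster led by Cfp and Il1r2 was low at both stages, and it held 832 of the E13.5 cells but only 68 of the E14.5 cells. Most LTi-like clusters of the periphery belonged almost wholly to 1 stage. The mitotic cluster with 273 CPM at E14.5 had 271 CPM in 13 cells at E13.5. The mitotic cluster with 125 CPM at E13.5 had 102 CPM in 15 cells at E14.5, with overlapping intervals. The cluster led by MHC class II genes had 70.4 CPM in 12 cells at E13.5, below its E14.5 level, as in the cluster led by Cfp and Il1r2.

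The stage difference in Cxcr6 was present within the LTi-like and group 1-like classes as well as in the whole libraries, though not within every LTi-like cluster of the periphery. In the periphery the level was 3.52 times higher at E14.5 than at E13.5, a log2 ratio of 1.75 against a median of 0.21 over the 5269 genes measured. Of those, 3.61% were higher by 1 log2 unit or more, and Cxcr6 ranked 16 from the top. In fetal liver it was 6.56 times higher, a log2 ratio of 1.03 after adding 5 CPM to both levels, where 1.43% of 5893 genes passed 1 log2 unit and Cxcr6 ranked 81, close to that limit. If the E14.5 periphery had kept its mix of classes with the E13.5 level in each, its Cxcr6 would have been 95.02 CPM, and the E13.5 periphery with E14.5 levels would have stood at 241 CPM. The same sums for fetal liver gave 1.75 CPM and 6.08 CPM. By both sums most of the stage difference lay within the classes as drawn here, which are broad. Most LTi-like clusters of the periphery belonged almost wholly to 1 stage, so a change of mix inside a class counts as within it. The sums were not repeated with other clusterings.

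Cells with Cxcr6 were next compared with cells without it, library by library, at 5000 UMIs each. A gene counted as higher or lower where the log2 ratio of CPM plus 5 reached 1 or -1, among genes at 20 CPM or more on either side. In E14.5 periphery 2496 positive and 1398 negative cells differed in 1 gene upwards (0.0184% of 5425) and 119 downwards (2.19%). In E13.5 periphery 987 and 2847 cells differed in 50 genes upwards (1.04% of 4821) and 139 downwards (2.88%). In E14.5 fetal liver 234 and 9863 cells differed in 538 genes upwards (8.42% of 6387) and 313 downwards (4.9%). In E13.5 fetal liver 55 and 9787 cells differed in 601 genes upwards (9.12% of 6589) and 503 downwards (7.63%). The counts were larger in fetal liver, where positive cells were rare among progenitors, than in the periphery, where most cells were LTi-like. The fetal liver counts also rest on fewer positive cells and include noise from small cell numbers. The parts of noise and of the mix of cells were not tested.

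In fetal liver the positive cells had more of genes from the LTi, group 1 and group 2 lists. Arg1, which encodes the arginine-degrading enzyme arginase 1, had 602 (558 to 648) CPM in positive against 6.73 (6.03 to 7.50) CPM in negative cells at E14.5, a log2 ratio of 5.69, and 385 against 2.49 CPM at E13.5 (5.70). AW112010, an interferon-inducible transcript, had 426 against 4.20 CPM at E14.5 and 269 against 2.27 CPM at E13.5. Cd160, a receptor of NK and innate lymphoid cells, had 215 against 2.96 CPM and 175 against 3.45 CPM at E14.5 and E13.5. Lta, one of the lymphotoxin genes needed for lymph node formation, had 572 against 23.4 CPM and 487 against 8.73 CPM. Further genes at the top in both libraries were Ccl5, Cxcl10, Klrb1b, Rora, Serpina3g and Tnfrsf9, with log2 ratios at E14.5 of 5.01, 4.85, 4.91, 4.59, 4.80 and 4.31. Genes of neutrophil precursors and of multipotent cells were lowest, with Prtn3 at 6.84 against 267 CPM, Elane at 1.71 against 72.1 CPM and Mpo at 41.9 against 448 CPM in positive against negative E14.5 cells.

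The same comparison in the periphery had LTi-like cells on both sides, with 2268 of the positive and 870 of the negative cells at E14.5. At E14.5 Lta had 426 against 213 CPM, log2 ratio 0.99, Serpina3g 379 against 206 CPM, log2 ratio 0.86 and Cd160 247 against 140.5 CPM, log2 ratio 0.79 in positive against negative cells, all short of 1 log2 unit. AW112010 passed it, with 24.7 against 6.15 CPM, log2 ratio 1.41. At E13.5 the type 3 cytokine gene Il22 had 1613 against 475 CPM, log2 ratio 1.75, Rasl11a 279 against 91.0 CPM, log2 ratio 1.57 and Arg1 404 against 146 CPM, log2 ratio 1.44. B lineage genes were the lowest, with Vpreb3 at 7.45 against 374 CPM and Ebf1 at 7.69 against 331 CPM in positive against negative E14.5 cells. Restricted to innate lymphoid clusters, Ebf1 came to 0.13 and Vpreb3 to -0.32 on the log2 scale at E14.5.

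The innate lymphoid clusters alone gave smaller contrasts in the periphery. In E14.5 periphery 2438 positive and 946 negative cells of these clusters differed in 1 gene upwards (0.0189% of 5293) and 3 downwards (0.0567%). In E13.5 periphery 963 and 1608 cells differed in 2 genes upwards (0.0427% of 4683) and 19 downwards (0.406%). For fetal liver the counts were 366 upwards (5.79% of 6323) and 183 downwards (2.89%) in 227 and 674 cells at E14.5. At E13.5 they were 474 upwards (7.3% of 6494) and 374 downwards (5.76%) in 54 and 1415 cells of fetal liver.

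Lists of genes give the same picture in counts. The LTi programme (16 genes, among them cytokine, lymphotoxin and receptor genes) had no measured member past 1 log2 unit of 14 in E14.5 periphery and 4 of 14 higher in E13.5 periphery, against 9 of 10 in E14.5 and 13 of 14 in E13.5 fetal liver, none of them lower. Its medians were 0.54, 0.88, 3.25 and 2.61, where the medians of all measured genes lay between -0.02 and 0.03. Over all genes, 0.0184%, 1.04%, 8.42% and 9.12% were higher in E14.5 periphery, E13.5 periphery, E14.5 fetal liver and E13.5 fetal liver. In the same order, 2.19%, 2.88%, 4.9% and 7.63% were lower. The innate lymphoid specification list (Id2, Gata3, Tcf7, Zbtb16 and others) had 12 of 14 higher and 1 lower in E14.5 fetal liver, and 11 of 12 higher in E13.5 fetal liver. The group 1 and cytotoxic list had 11 of 13 members higher and 2 lower in E14.5 fetal liver and 9 of 11 higher and 1 lower in E13.5 fetal liver, with medians of 2.99 and 2.47, while in the periphery it had none higher and 4 of 9 and 3 of 8 lower. The group 2 list, which holds Arg1 and the costimulatory receptor gene Icos, had 4 of 4 measured members higher in E14.5 fetal liver (median 3.68), 3 of 4 higher and 1 lower in E13.5 fetal liver (median 2.66), none of 3 past 1 log2 unit in E14.5 periphery, and 1 of 5 higher and 2 lower in E13.5 periphery. The T cell receptor and CD3 list had 9 of 9 and 5 of 7 higher in fetal liver, against 0 of 7 and 1 of 6 in the periphery. The part of T cells in the fetal liver counts was not tested. The B lineage list had all of its measured members lower in E14.5 periphery (9), E13.5 periphery (7) and E14.5 fetal liver (10), and 4 of 5 in E13.5 fetal liver. The proliferation list had no member past 1 log2 unit in any of the 4 libraries, out of 12 measured in each.

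Detection per cell was also compared. Id2, the inhibitor of E proteins that marks committed innate lymphocytes, was detected in 99.4%, 88.4%, 91.9% and 96.4% of the positive cells of E14.5 periphery, E13.5 periphery, E14.5 fetal liver and E13.5 fetal liver, against 75.6%, 62.0%, 16.5% and 35.5% of the negative cells. Tbx21, which encodes T-bet, the factor of group 1 cells, was detected in 1.40%, 1.62%, 10.7% and 5.45% of positive cells, against 1.001%, 1.23%, 0.193% and 0.133% of negative ones. Cd3g, a gene of the CD3 complex, was found in 51.7% and 34.5% of the positive cells of fetal liver, against 1.76% and 2.71% of the negative ones at E14.5 and E13.5, and in 9.58% and 15.9% of the positive cells of the periphery, against 10.9% and 21.8% of the negative ones. By class, 90.9% and 85.1% of the positive cells of E14.5 and E13.5 periphery were LTi-like, against 26.1% and 49.1% of those of E14.5 and E13.5 fetal liver. Group 1-like cells made up 6.81% and 12.5% of positive cells in the periphery and 70.1% and 49.1% in fetal liver.

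Within LTi-like cells of fetal liver, Il22, Lta, Ltb and Arg1 were higher in Cxcr6-positive cells. At E14.5, 61 positive and 131 negative LTi-like cells of fetal liver differed in 317 genes upwards (4.91% of 6456 measured) and 296 downwards (4.58%), counts that include noise from the small cell numbers. Il22 had 849 (749 to 959) CPM in positive against 205 (171 to 242) CPM in negative cells, a log2 ratio of 2.03 (1.73 to 2.33). Lta had 1879 (1728 to 2039) against 614 (555 to 677) CPM, and Ltb, the partner of Lta in the membrane lymphotoxin heterotrimer, had 1433 (1302 to 1574) against 606 (548 to 669) CPM. None of these intervals overlapped between positive and negative cells, but they cover counting error only and not the spread from cell to cell. Il22 was detected in 42 of all 234 Cxcr6-positive cells of that library, so its UMIs came from a minority of cells. Arg1 had 397 against 91.6 CPM, log2 ratio 2.06, Thy1 177 against 50.4 CPM, log2 ratio 1.72, Cd160 184 against 73.3 CPM, log2 ratio 1.27 and Serpina3g 498 against 148 CPM, log2 ratio 1.72.

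Some receptor and transcription factor genes of LTi cells were close between positive and negative E14.5 LTi-like cells of fetal liver. Cxcr5, the receptor gene for the lymphoid chemokine CXCL13, had 128 against 134 CPM in positive against negative cells and a log2 ratio of -0.069 (-0.61 to 0.48). Tcf7, which encodes TCF1, had 1548 against 1534 CPM and a ratio of 0.012 (-0.15 to 0.17), and Ccr6 had 59.0 against 56.5 CPM. Both intervals include 0 and allow differences up to the bounds given. Il7r, the gene of the sorted receptor, had 774 against 485 CPM, log2 ratio 0.67.

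Cd34, Flt3, Plac8 and other genes were lower in the positive cells. Cd34 had 26.2 against 131 CPM in positive against negative E14.5 LTi-like cells of fetal liver, the cytokine receptor gene Flt3 6.56 against 61.1 CPM, Plac8 85.2 against 322 CPM and the integrin gene Itga4 213 against 356 CPM. Nfil3, a factor gene of the innate lymphoid specification list, had 52.5 against 129.8 CPM and the chemokine receptor gene Ccr2 115 against 356 CPM. The innate lymphoid specification list had 1 of 13 measured members higher and 1 lower in these cells, with a median of 0.012, where the median of all genes was 0.034. Over all genes 4.91% were higher and 4.58% lower. The part that the mix of cells within the cluster has in these ratios was not tested.

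At E13.5 there were only 27 positive against 382 negative cells, and Il22, Lta, Arg1 and Thy1 lay on the side they had at E14.5. Il22 had 200 against 14.7 CPM, log2 ratio 3.38 (2.62 to 4.15), in positive against negative LTi-like cells of fetal liver. These levels rest on 27 and 28 UMIs, and Il22 was detected in only 5 of all 55 Cxcr6-positive cells of the library. Lta had 896 against 85.9 CPM, log2 ratio 3.31, Arg1 326 against 16.2 CPM, log2 ratio 3.96 and Thy1 111 against 15.7 CPM, log2 ratio 2.49 in the same LTi-like cells. Cxcr5 had 104 against 103 CPM. There were 563 genes higher (8.35% of 6744 measured) and 536 lower (7.95%), the widest background of the LTi-like comparisons, so single genes with few UMIs carry little weight here.

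In periphery LTi-like cells, positive and negative cells were close to each other. At E14.5 no gene of 5304 was higher by 1 log2 unit (0%) and 2 were lower (0.0377%), and at E13.5 none of 4691 was higher (0%) and 18 were lower (0.384%). At E14.5 Lta had 453 (441 to 465) against 317 (300.1 to 334) CPM, a ratio of 0.51 (0.42 to 0.60), and Il22 2180.2 against 1933 CPM, a ratio of 0.17 (0.14 to 0.21). At E13.5 Il22 had 1874 against 1019 CPM (0.88 (0.83 to 0.92)) and Arg1 335 against 192 CPM (0.79 (0.68 to 0.90)). With no thinning these E13.5 ratios were 1.24 for Il22 and 1.14 for Arg1. Ccl5 was lower in positive cells, with 103 against 212 CPM, log2 ratio -1.010 at E14.5 and 201 against 497 CPM, log2 ratio -1.28 at E13.5, but over other clusterings the ratio came as near to 0 as -0.12 at E14.5 and -0.42 at E13.5. The gene Cfp had 25.4 against 59.1 CPM, log2 ratio -1.08 at E14.5 and 84.8 against 184 CPM, log2 ratio -1.07 at E13.5, and it leads the cluster with little Cxcr6.

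**Figure D3:**
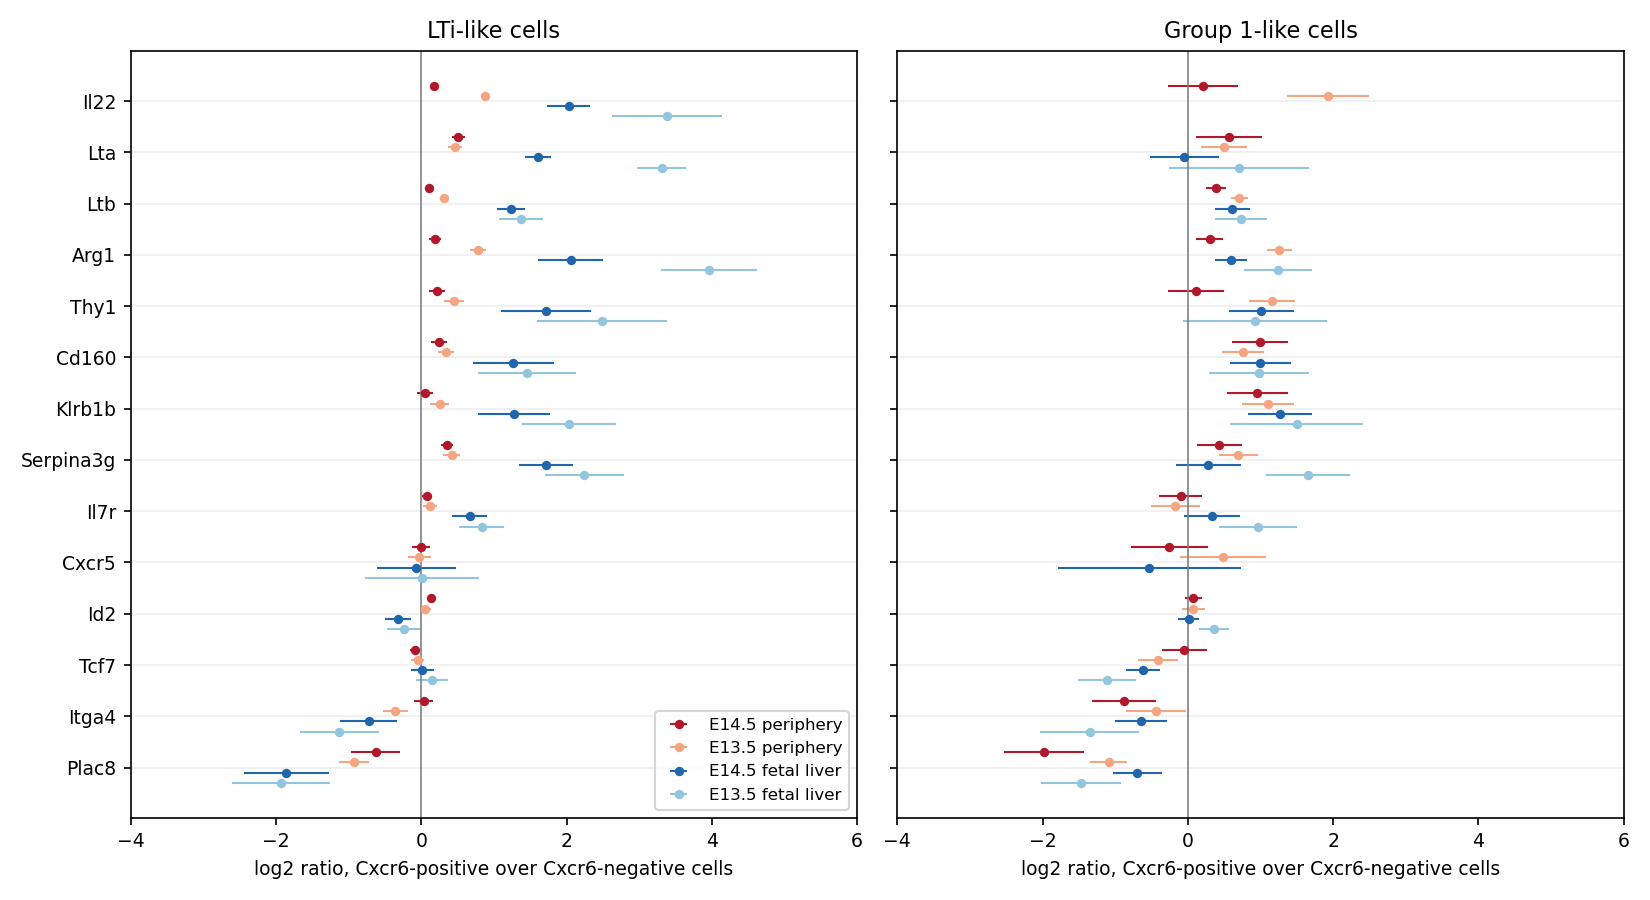
Genes in Cxcr6-positive against Cxcr6-negative cells of the same class. Points give the log2 ratio of CPM plus 5 in each library, with bars for 95% counting error, in LTi-like cells (left) and group 1-like cells (right); genes with fewer than 20 UMIs in a comparison are not drawn. Il22, Lta, Ltb and Arg1 lie right of 0 in the LTi-like cells of fetal liver, by 2.03, 1.61, 1.23 and 2.06 at E14.5, while Cxcr5 lies at -0.069.

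The LTi programme list counted within LTi-like cells had no member past 1 log2 unit of 14 in either periphery library, and 4 of 15 and 8 of 16 higher in E14.5 and E13.5 fetal liver, with none lower. Over all genes 4.91% and 8.35% were higher in those fetal liver comparisons. The medians of the list were 0.074 and 0.16 in E14.5 and E13.5 periphery and 0.058 and 1.03 in E14.5 and E13.5 fetal liver, and those of all genes 0.0061, 0.029, 0.034 and 0.060 in the same order. The early progenitor list had 3 of 4 measured members lower in E14.5 fetal liver LTi-like cells and 1 of 3 in E13.5 ones, and none of 1 in each periphery library. Over all genes 4.58% and 7.95% were lower in E14.5 and E13.5 fetal liver LTi-like cells, and 0.0377% and 0.384% in those of E14.5 and E13.5 periphery. The proliferation list had 1 of 12 members lower in E14.5 fetal liver and none past 1 log2 unit in the other 3 libraries.

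In the LTi-like cells of E14.5 fetal liver, cells with 2 to 3 Cxcr6 UMIs had no more Il22, Lta or Arg1 than cells with 1. Cells with 0, 1 and 2 to 3 Cxcr6 UMIs, of which there were 131, 29 and 24, had 205, 876 and 817 CPM of Il22 and 614, 1910.3 and 1575 CPM of Lta. Arg1 had 91.6, 434 and 342 CPM. Among these 3 groups of cells the step lay between no UMI and 1 UMI for all 3 genes. The few cells with 4 or more Cxcr6 UMIs, which belong to the 61 positive LTi-like cells of E14.5 fetal liver, are left out of these groups. Whether Il22, Lta or Arg1 rose further in those cells was not tested. In LTi-like cells of E14.5 periphery, with 870, 884, 972 and 412 cells at 0, 1, 2 to 3 and 4 or more UMIs, Id2 had 1763, 1841, 1943 and 2136 CPM. Cd160 had 206, 221, 252 and 278 CPM and Cxcr3 13.3, 15.6, 22.4 and 34.0 CPM, so both went up with the number of Cxcr6 UMIs. The proliferation gene Mki67 went down, at 96.8, 83.5, 75.9 and 57.3 CPM. In LTi-like cells of E13.5 periphery, with 1287, 514, 286 and 40 cells, the integrin gene Itga4 had 121, 102, 83.9 and 65.0 CPM.

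**Figure D4:**
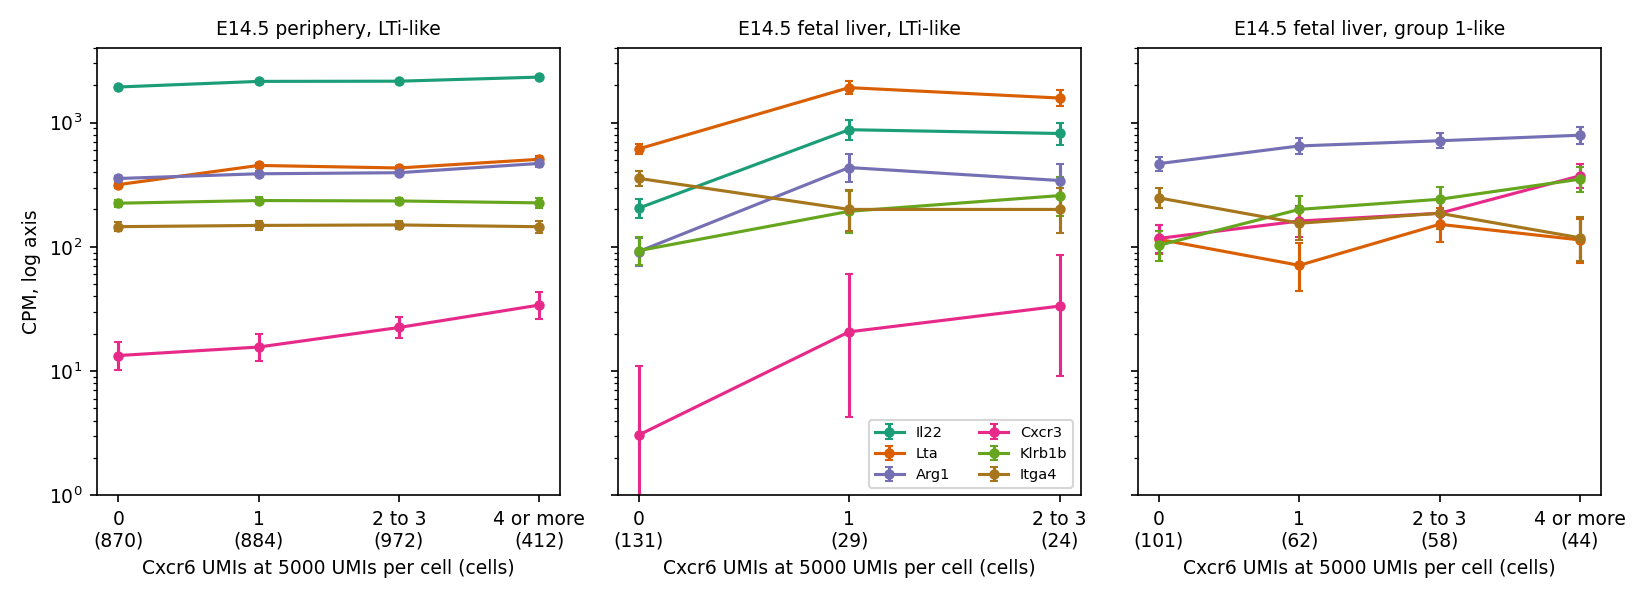
Genes by the number of Cxcr6 UMIs per cell at 5000 UMIs. Lines give CPM on a log axis with 95% Poisson intervals for LTi-like cells of E14.5 periphery (left), LTi-like cells of E14.5 fetal liver (middle) and group 1-like cells of E14.5 fetal liver (right), with the number of cells in brackets; groups with fewer than 20 cells and Il22 in the right panel, which had under 10 UMIs in a bin, are not drawn. Il22, Lta and Arg1 step up between 0 and 1 UMI in the middle panel, and Cxcr3 and Klrb1b climb along the right panel.

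In the group 1-like cells of fetal liver, Klrb1b, Klrk1 and Ikzf3 were higher in Cxcr6-positive cells at E14.5. At E14.5, 164 positive and 101 negative cells differed in 128 genes upwards (2.07% of 6194) and 109 downwards (1.76%). Klrb1b had 255 (221 to 292) CPM in positive against 103 (76.9 to 135) CPM in negative cells, a log2 ratio of 1.27 (0.83 to 1.71), and Klrk1, which encodes the activating receptor NKG2D, had 123 against 47.5 CPM, log2 ratio 1.29. Ikzf3, a lymphoid transcription factor gene, had 130.5 against 49.5 CPM, log2 ratio 1.31, AW112010 604 against 263 CPM, log2 ratio 1.18 and Thy1 212 against 103 CPM, log2 ratio 1.008. Cd160 had 238 against 117 CPM, log2 ratio 0.99 and the chemokine receptor gene Cxcr3 227 against 117 CPM, log2 ratio 0.93, just short of 1 log2 unit. Of these transcripts, Cxcr3 and Klrb1b are given by the number of Cxcr6 UMIs, and both rose with that number. At 0, 1, 2 to 3 and 4 or more UMIs (101, 62, 58 and 44 cells) Cxcr3 had 117, 161, 186 and 373 CPM and Klrb1b 103, 200, 241 and 350.0 CPM. Ccl5 went down with the number of Cxcr6 UMIs, at 1111, 906, 766 and 723 CPM.

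The group 1 and cytotoxic list had 2 of 14 measured members higher and none lower in these E14.5 cells (median 0.35, all genes -0.0025), and 2 higher and 4 lower of 14 in the E13.5 ones (median -0.016, all genes 0.0093). Over all genes 2.07% were higher and 1.76% lower at E14.5, and 6.59% higher and 10.5% lower at E13.5. Defining group 1 genes were low on both sides of this class. Tbx21 had 39.0 against 31.7 CPM in positive against negative E14.5 fetal liver cells, the NK receptor gene Ncr1 39.0 against 21.8 CPM, Eomes 1.22 against 9.90 CPM and the granzyme gene Gzmb 0 against 1.98 CPM. Gata3 had 452 against 499 CPM and Id2 1282 against 1271 CPM, both nearly equal. Lower in positive cells were Hmga2 at 32.9 against 115 CPM, Mef2c at 23.2 against 75.2 CPM, Tcf7 at 359 against 552 CPM and Itga4 at 156 against 248 CPM. Hmga2 is a chromatin gene of fetal stem and progenitor cells, and Mef2c a factor gene of early lymphoid progenitors.

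At E13.5 the group 1-like cells of fetal liver numbered 27 positive and 91 negative cells, with 439 genes higher (6.59% of 6657) and 702 lower (10.5%). Klrb1b had 133 against 44.0 CPM, log2 ratio 1.499 and AW112010 548 against 101 CPM, log2 ratio 2.38 in positive against negative cells. Itga4 had 141 against 367 CPM, log2 ratio -1.35 and Tcf7 422 against 919 CPM, log2 ratio -1.11. These 4 genes kept the sides they had at E14.5.

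The group 1-like cells of the periphery come from 2 clusters with unlike Cxcr6 levels. At E14.5, 170 positive and 76 negative cells differed in 135 genes upwards (2.38% of 5678) and 119 downwards (2.1%), and at E13.5, 123 and 321 cells in 49 upwards (1.03% of 4763) and 53 downwards (1.11%). AW112010 had 304 against 60.5 CPM, log2 ratio 2.24 at E14.5 and 127 against 58.6 CPM, log2 ratio 1.05 at E13.5 in positive against negative cells, and Klrk1 48.2 against 7.89 CPM, log2 ratio 2.05 and 42.3 against 16.2 CPM, log2 ratio 1.16. Ifng had 89.4 against 55.3 CPM, log2 ratio 0.65 at E14.5 and 145 against 51.1 CPM, log2 ratio 1.42 at E13.5. Ccl5 had 1880.0 against 3918 CPM, log2 ratio -1.06 at E14.5 and 1964 against 4176 CPM, log2 ratio -1.09 at E13.5, and Xcl1 1.18 against 26.3 CPM, log2 ratio -2.34 and 13.0 against 53.6 CPM, log2 ratio -1.70. Il22 had 109 against 24.9 CPM, log2 ratio 1.93 at E13.5. How the class is drawn decides some of these values, since Ccl5 at E14.5 came to 0.41 with cell-cycle genes kept in the clustering and Il22 at E13.5 to -0.44 at a finer resolution.

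Among chemokine receptors, Cxcr6 was more abundant than the 16 others examined in LTi-like cells of E14.5 periphery, at 316 CPM. It was followed by Ccr2 at 226, Cxcr5 at 154, Ccr6 at 112 and Ccr7 at 98.6 CPM. In LTi-like cells of E13.5 periphery Ccr2 (134 CPM), Cxcr5 (127 CPM) and Cxcr6 (123 CPM) were close together. In LTi-like cells of fetal liver Ccr2 led with 283 and 290.2 CPM at E14.5 and E13.5, followed by Cxcr5 with 134 and 97.2 CPM. These are CPM levels of a 3′ assay, which do not scale with transcript length. Cxcr6 had 106 and 15.9 CPM in the LTi-like cells of E14.5 and E13.5 fetal liver. At each stage it lay further below its periphery level than Cxcr5 did. Kit and tissue cannot be told apart in this comparison.

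Detection of Cxcr5 and Cxcr6 in LTi-like cells was also counted per cell. At equal depth, cells with both Cxcr5 and Cxcr6 made up 37.1% and 17.8% of LTi-like cells in E14.5 and E13.5 periphery, and 15.6% and 2.69% in E14.5 and E13.5 fetal liver. Cells with Cxcr6 and no Cxcr5 made up 35.1%, 21.7%, 16.1% and 3.91% in the same order. Cells with Cxcr5 and no Cxcr6 made up 14.1%, 26.5%, 31.3% and 34.0%, and cells with neither 13.6%, 34.0%, 37.0% and 59.4%. Cxcr6 without Cxcr5 thus outnumbered Cxcr5 without Cxcr6 in E14.5 periphery alone among the 4 libraries. A share without a UMI includes cells in which a transcript was present but not captured.

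**Figure D5:**
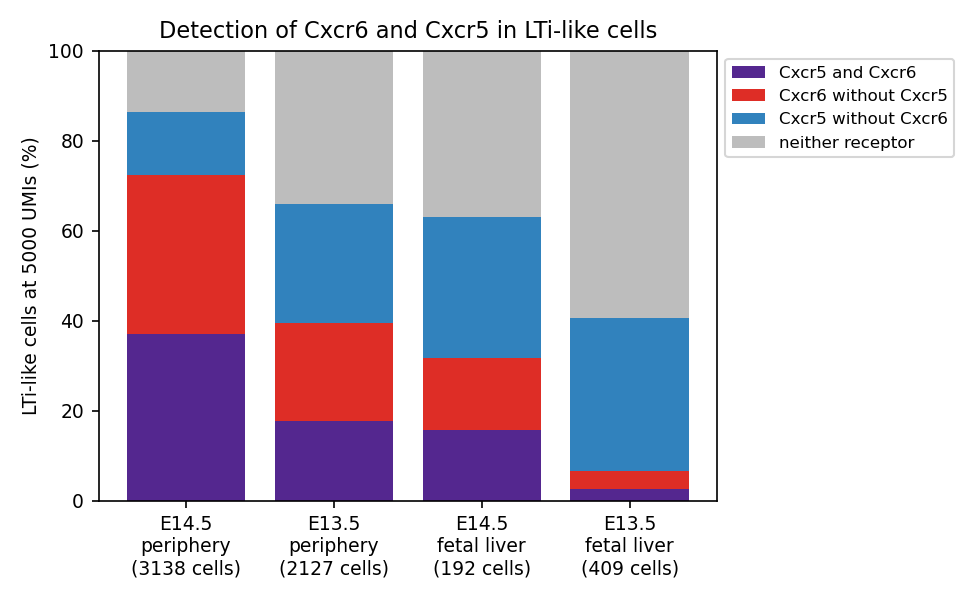
Cxcr6 and Cxcr5 in LTi-like cells. Stacked bars give the percent of LTi-like cells at 5000 UMIs that held both receptors, Cxcr6 alone, Cxcr5 alone or neither, in each library, with the number of cells under each bar. Cells with Cxcr6 make up 72.3% in E14.5 periphery and 6.60% in E13.5 fetal liver.

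The genes whose level over clusters was most like that of Cxcr6 were mostly different ones in the 2 tissues. Pearson correlations over cluster-by-library groups of at least 30 cells are given as a description, since the groups share libraries and depth. In the periphery (24 groups, 7506 genes) the highest were Rasgrp1 (0.97), a Ras activator of lymphocytes, Camk4 (0.97), Abhd8 (0.96), Tox2 (0.95), Thy1 (0.95) and the kinase gene Txk (0.95). In fetal liver (32 groups, 8780 genes) they were Arg1 (0.99), Camk4 (0.98), 1700113H08Rik (0.97), Stk39 (0.97), Rasgrp1 (0.97) and Krt83 (0.97). Rasgrp1 and Camk4 were on both lists. Tbx21 stood at rank 105 in fetal liver.

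The ligand gene Cxcl16 was close to absent from these IL7Ra+ cells. It had 0.497 (0.307 to 0.759) and 1.61 (1.28 to 2.005) CPM in E14.5 and E13.5 periphery, and 0.0444 and 0.0203 CPM in E14.5 and E13.5 fetal liver. Monocyte-like cells of the periphery had 8.95 (2.90 to 20.9) and 23.6 (17.9 to 30.5) CPM at E14.5 and E13.5. The sort was set against F4/80+ cells and for CD45+ ones, so the liver endothelium that can carry the ligand lay outside the gate. Some cells with macrophage genes remained in both tissues. C1qa, C1qb and C1qc were among the leading genes of the monocyte-like cluster of the periphery and of that of fetal liver.

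Of the genes beside Cxcr6 on the chromosome, some followed its order over the libraries and others did not. Fyco1, whose span holds Cxcr6, had 10.8, 7.13, 9.54 and 13.4 CPM in E14.5 periphery, E13.5 periphery, E14.5 fetal liver and E13.5 fetal liver. Xcr1 was at or below 0.117 CPM in every library. Ccr9, a gut and thymus homing receptor gene, had 9.98 and 42.1 CPM in E14.5 and E13.5 periphery against 55.0 and 69.2 CPM in E14.5 and E13.5 fetal liver. Its order over the 4 libraries was the reverse of that of Cxcr6. Ccr2, the receptor gene for CCL2, had 199.9 and 99.1 CPM in E14.5 and E13.5 periphery against 27.4 and 38.8 CPM in E14.5 and E13.5 fetal liver, and was thus higher in the periphery, as Cxcr6 was. Ccrl2 had 40.7, 37.3, 2.91 and 2.16 CPM and Ccr1 26.8, 19.8, 18.8 and 9.62 CPM in E14.5 periphery, E13.5 periphery, E14.5 fetal liver and E13.5 fetal liver, the order that Cxcr6 had. Of the 11 neighbour genes listed, 2 of 6 measured were higher in positive cells of E14.5 and 2 of 5 in those of E13.5 fetal liver, Ccr2 among them in both, with medians of 0.61 and 0.86. Over all genes 8.42% and 9.12% were higher in those comparisons. In the LTi-like cells of E14.5 fetal liver none of 5 was higher and 3 were lower, with a median of -1.16. There 4.91% of all genes were higher and 4.58% lower, and so few neighbour genes allow no reading against these shares.

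Cxcr6-positive cells themselves differed between the stages. In the periphery 141 genes were higher by 1 log2 unit or more at E14.5 (2.69% of 5247) and 48 lower (0.915%). The glycolysis gene Hk2 had 125 against 26.7 CPM, log2 ratio 2.04, and Jun, an AP-1 factor gene, 718 against 174 CPM, log2 ratio 2.01 in E14.5 against E13.5 positive cells. The ribosomal protein gene Rps28 was the highest, with 3196 against 428 CPM, log2 ratio 2.89, and Rps29 and Scand1 were also among the 6 highest. Crem, a cAMP-response factor gene, was the lowest, with 23.5 against 207 CPM, log2 ratio -2.90. In fetal liver 251 genes were higher (3.89% of 6452) and 195 lower (3.02%) among 234 E14.5 and 55 E13.5 positive cells. The neutrophil gene S100a9 had 189.7 against 7.27 CPM, log2 ratio 3.99, and Igll1, Camp, S100a8 and Il17rb were also among the 6 highest. The type 3 cytokine gene Il17a had 19.7 against 116 CPM, log2 ratio -2.30, and Cdh17 5.13 against 72.7 CPM, log2 ratio -2.94. S100a9, S100a8 and Camp are genes of neutrophils, of which the library held 133 cells at E14.5 and 248 at E13.5, and Igll1 is a gene of early B cells, of which it held 4298 and 449. The part of free RNA in these values was not tested.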

How the data were processed

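The deposited files are count matrices of UMIs per gene and barcode with no normalization. Per the file headers the authors made them with Cell Ranger 3.0.1 for periphery and 3.0.0 for fetal liver, and per the submitters' processing notes with Cell Ranger 3 on mm10. The feature lists hold 28427 genes for periphery and 31053 for fetal liver, of which 27566 are shared, so a gene can be absent from one of them. The gene models behind the counts, and their strand setting, were not given in the sources used here. Per the labels' protocols the libraries were sequenced on a NextSeq instrument.

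Barcodes were kept where 500 genes or more were detected and no more than 10% of UMIs were mitochondrial (5008, 4531, 12090 and 10783 barcodes in E14.5 periphery, E13.5 periphery, E14.5 fetal liver and E13.5 fetal liver before filtering), and doublets scored by Scrublet were removed (151, 140, 869 and 418), at its automatic threshold in fetal liver and up to the expected rate in the periphery. Each tissue was clustered in scanpy 1.11.5 (Leiden, resolution 1, seed 1, 2000 variable genes, 30 components, 15 neighbours) without Cxcr6 and cell-cycle genes. Clusters were named X-like after the highest-scoring set with at least 3 markers and over 50% detected, provided that no other set had more markers among the 10 leading genes. A name was withheld where a set outside the innate lymphoid ones scored within 0.5 log2 units, a limit not applied between the LTi, innate lymphoid progenitor and group 1 sets, and for shallow clusters with no marker among the leading genes. These rules were settled after seeing the data. Levels are summed UMIs scaled to 1000000 per group of cells (CPM), with exact Poisson intervals at 95%, and shares have exact Clopper-Pearson intervals. Cells were thinned to 5000 UMIs with a fixed seed before positive and negative cells were compared as log2 ratios of CPM plus 5 among genes at 20 CPM or more. The summing and ratio steps were tested on simulated data. With 1 library per group no test across samples was made.

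Named genes were the members of the lists furthest from the median and the defining ones, the genes with the highest and lowest ratios in both libraries of a tissue, those most like Cxcr6 over clusters, and those with the largest stage difference in positive cells. The gene, the lists and the markers were chosen with earlier results of these data known. Motifs were searched in the RefSeq promoter table, and coordinates came from GENCODE M21 on GRCm38. Alternatives covered the filter, the total, the depth, the pseudocount and the clustering. Those within LTi-like and group 1-like cells were chosen after seeing the data.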

Additional observations from a re-analysis of the deposited data

How the results depend on the processing

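No paired analysis was possible because each group has 1 library, and for the same reason no replicate could be left out. The order of the 4 libraries and the higher level at E14.5 in both tissues held under every alternative for level, share and stage difference. With equal weight per cell the Cxcr6 level was 296 CPM in E14.5 and 85.4 CPM in E13.5 periphery and 12.8 and 2.08 CPM in E14.5 and E13.5 fetal liver, and with ribosomal, mitochondrial and haemoglobin genes out of the total it was 355, 108, 9.95 and 1.53 CPM. With a stricter filter (1000 genes, 5% mitochondrial UMIs) fetal liver came to 7.16 and 0.724 CPM, and the E13.5 share to 0.276%. The share in E14.5 periphery, E13.5 periphery and E14.5 fetal liver was 50.7%, 19.2% and 1.98% at 3000 UMIs. At 8000 UMIs the periphery shares were 66.9% and 31.6%. Asking for at least 2 UMIs gave 39.3% and 9.96% in E14.5 and E13.5 periphery and 1.34% and 0.234% in E14.5 and E13.5 fetal liver. The stage log2 ratio was 1.67 in periphery with those genes out of the total, and 1.33 with equal weight and 1.995 with a pseudocount of 1 CPM in fetal liver.

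The share of Cxcr6 UMIs in innate lymphoid clusters moved in the periphery, to 88.4%, 87.5%, 93.7% and 94.3% at E14.5 and 80.9%, 75.8%, 83.6% and 89.6% at E13.5 for resolution 2, resolution 0.5, seed 2 and cell-cycle genes kept. Counts of genes past 2-fold moved most. Genes higher in positive cells numbered 137 with no thinning, 4 with at least 2 UMIs, 5 with a pseudocount of 1 CPM and 2 with no minimum CPM in E14.5 periphery, 126 with no thinning and 76 with at least 2 UMIs in E13.5 periphery, and 394 with no thinning and 968 with no minimum in E13.5 fetal liver. Genes lower numbered 225 and 220 with no thinning and no minimum in E14.5 periphery, 244 with no minimum in E13.5 periphery, 510 with no minimum in E14.5 fetal liver, and 184, 892 and 1029 with no thinning, at least 2 UMIs and no minimum in E13.5 fetal liver. The cause of these changes was not tested.

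Within innate lymphoid clusters, which leave out other lineages by construction, 10 log2 ratios of B lineage and myeloid genes changed sign. They were Mpo 0.16, Ebf1 0.13 and Mzb1 0.15 in E14.5 periphery, Vpreb3 0.092, Ebf1 0.027, Igll1 0.22 and Cd79a 0.017 in E13.5 periphery, and Vpreb3 0.33, Igll1 0.00058 and Lef1 0.36 in E14.5 fetal liver. In group 1-like cells of the periphery Ccl5 came to 0.41 at E14.5 with cell-cycle genes kept and Il22 to -0.44 at E13.5 at resolution 2, and the cause was not tested. Of the other values for single genes and classes, 553 moved by more than counting error and 1209 did not. The E13.5 fetal liver comparisons rest on 55 positive cells in all.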
